A study of Mus musculus with 6 samples.

Results

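The early transient genes are 81 genes of the mouse gonadotrope cell line Lbeta T2 (LβT2) whose RNA signal was higher in cultures given activin A at 1 h and 2 h, and no longer so at 6 h. They were selected on the measured signals themselves, from 11500 genes with a mean signal of at least 155 over the 6 arrays. The brightest probe set stood for each gene, a probe set being the group of short oligonucleotides that measures its RNA. The ratio of activin over vehicle had to be at least 1.3 at 1 h and at 2 h and under 1.2 at 6 h. These limits left 84 genes, and 3 of them were set aside, namely the inhibitory Smad gene Smad7 and the zinc finger genes Zfp626 and Zfp775, because Smad7 and symbols that begin with Zfp were left out by name. Because the members were chosen by these ratios, the ratios are given as a description, without a test.

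LβT2 cells come from a tumour of the mouse pituitary and keep many features of gonadotropes, the cells that make luteinizing and follicle-stimulating hormone. The cultures were kept for 16 h in serum-free, phenol-free medium, and then received recombinant human activin A at 30 ng/ml or the vehicle. The 6 groups were activin at 1, 2 and 6 h and vehicle at 1, 2 and 6 h, each with 1 array of total RNA from a flask culture of this single line. No group has a replicate, so no difference at a given time has a replicate check, and the 3 vehicle arrays of different times are the only measure of spread. In RNA from a whole culture, more RNA per cell and more cells that carry the RNA cannot be told apart.

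Activin is a dimeric ligand of the TGF-beta family. It binds type II and type I receptor kinases, which phosphorylate Smad2 and Smad3, and these enter the nucleus with Smad4 and act at genes together with other transcription factors. Genes that answer such a signal within the first hours and then return often encode feedback inhibitors, transcription factors or short-lived regulators, and gonadotropes use the pathway to raise the gene of the follicle-stimulating hormone beta subunit.

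The arrays were alike in their trimmed mean signal (500.002 on each) and in their median signal, which lay between 151 and 166.4. Of 14 gonadotrope markers on the array, 12 passed the minimum, among them Cga, Gnrhr, Nr5a1 and Foxl2, whereas Fshb and Otx1 did not. Their summed signal was 40480.7 to 48021 with activin and 41191.6 to 42706.1 with vehicle. Of the markers of other pituitary lineages, 3 of 11 passed, with sums of 1768.8 to 1887.7 with activin and 1638.1 to 1740.5 with vehicle. Those that passed were Tshb, Pomc and Crhr1, while others such as Prl, Gh and Sox2 stayed below the minimum. Of the markers of fibroblasts, endothelium and blood, 6 of 13 passed, with sums of 3535.2 to 4270.5 with activin and 3431.4 to 3827.6 with vehicle. They were Cdh5, Pecam1, Csf1r, Col1a2, Kdr and Adgre1. The part of other cells in the members' values was not tested. The activin array at 1 h stood apart in a control: the 5′ probe set of 18S ribosomal RNA gave 12201.8 there and 610.1 on the vehicle array of that time. At 2 h this control gave 1171.1 with activin and 642.8 with vehicle, and at 6 h 248 and 190.3. The ratio of the 3′ to the 5′ probe set of beta-actin lay between 1.14 and 1.27 on all 6 arrays, that of Gapdh between 0.787 and 0.836, and that of the transferrin receptor between 3.24 and 4.75, with 3.24 on the activin array at 1 h. The part of the 18S signal in the ratios was not tested at any time. Values that do not use the 1 h arrays are given beside those that do, although the control was also higher with activin at 2 h.

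Nfkbia, Socs3 and Cap1 were the 3 members for which another bright probe set of the same gene also met all the limits, and their promoters are shown for that reason. Each sequence is the 250 bases before the start of the gene, 5′ to 3′ on the strand of the gene, from RefSeq on GRCm38.p6. They lie at chr12:55492648-55492897, chr11:117969367-117969616 and chr4:122886077-122886326, all on the minus strand. Capitals mark the Smad box CAGAC on either strand, the NF-kappaB consensus and the STAT motif TTCNNNGAA.
Nfkbia: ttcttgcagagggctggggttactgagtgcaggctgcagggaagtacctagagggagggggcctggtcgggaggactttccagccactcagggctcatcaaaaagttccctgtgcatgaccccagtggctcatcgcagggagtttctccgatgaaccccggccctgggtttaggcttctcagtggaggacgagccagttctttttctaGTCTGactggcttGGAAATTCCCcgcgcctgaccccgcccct
Socs3: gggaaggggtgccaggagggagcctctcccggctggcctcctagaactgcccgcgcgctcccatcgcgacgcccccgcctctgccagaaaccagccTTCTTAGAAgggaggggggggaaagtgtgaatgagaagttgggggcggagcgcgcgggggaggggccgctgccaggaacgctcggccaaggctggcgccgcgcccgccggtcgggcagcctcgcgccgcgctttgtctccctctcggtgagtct
Cap1: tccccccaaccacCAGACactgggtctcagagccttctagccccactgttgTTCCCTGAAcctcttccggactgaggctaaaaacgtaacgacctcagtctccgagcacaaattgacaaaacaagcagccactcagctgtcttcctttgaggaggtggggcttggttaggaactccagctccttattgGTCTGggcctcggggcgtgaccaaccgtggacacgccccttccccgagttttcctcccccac
The Nfkbia window held an NF-kappaB match from −29 to −20 and a Smad box from −42 to −38, counted back from the start. The Socs3 window held a STAT match from −154 to −146, and that of Cap1 a STAT match from −199 to −191 and Smad boxes from −237 to −233 and from −62 to −58.

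Such matches were not rare in promoters at large. Windows of 250 bases before and 50 after the start were at hand for 64 members, 9330 measured genes and 27025 genes in all. The Smad box lay in 38 of the 64 members' windows (59.4%), in 47.2% of those of measured genes and in 49.7% of all. The NF-kappaB consensus lay in 7 members' windows (10.9%, against 10.3% of measured genes), those of Sdc4, Pdgfc, Evi5, Eml2, Bcl3, Nfkbia and Slain1. The STAT motif lay in 3 (4.69%, against 6.63%), those of Cap1, Socs3 and Esrrb. The palindromic Smad site GTCTAGAC, which does not hold the Smad box CAGAC, lay in 0 members' windows and in 0.247% of measured genes' windows. The cyclic AMP element TGACGTCA lay in 3 members' windows, the AP-1 site TGAGTCA in 2, the E-box CACGTG in 3 and the serum response CArG box in 1 (4.69%, 3.13%, 4.69% and 1.56%, against 3.34%, 3.301%, 10.1% and 1.21% of measured genes). Motifs were searched on both strands.

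The members as a whole were higher by modest ratios at the early times. Their ratios ranged from 1.303 to 5.42 at 1 h with a median of 1.51, from 1.3001 to 5.55 at 2 h with a median of 1.46, and from 0.291 to 1.19 at 6 h with a median of 0.974. On the log2 scale the medians were 0.60, 0.55 and −0.04, where the medians over all 11500 genes were −0.04, −0.03 and −0.02. Ratios of at least 2 were seen for 13 members at 1 h and for 10 at 2 h, and for both times in 1 member alone, Hif3a. The ratio was larger at 1 h in 46 members and larger at 2 h in 35. Among all genes, 6.08% were at least 1.3 times higher at 1 h, 5.96% at 2 h and 8.74% at 6 h, while 9.46%, 8.32% and 8.98% were lower by that factor. The full set of limits was met by 0.73% of genes, and its mirror image, lower at 1 h and 2 h and not at 6 h, by 100 genes (0.87%). Genes of an early and passing difference were thus about as many in the lower as in the higher direction on these arrays.

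**Figure D1:**
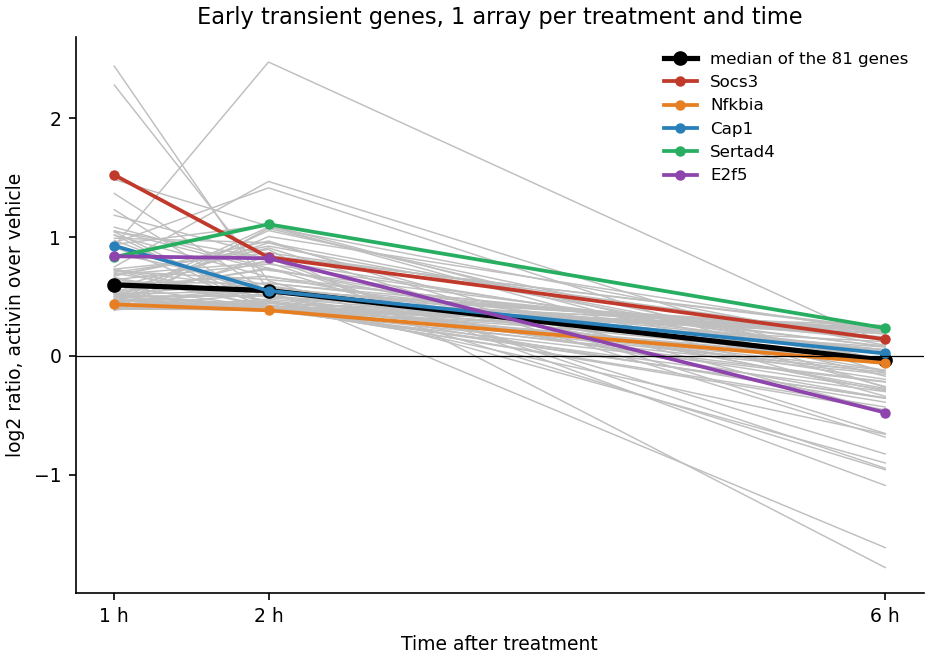
The log2 ratio of activin over vehicle (y axis) at 1, 2 and 6 h (x axis) for each of the 81 genes as a grey line, with their median in black and 5 genes in colour. The median goes from 0.60 and 0.55 at 1 h and 2 h to −0.04 at 6 h, and E2f5 ends below 0 while Socs3, Nfkbia and Cap1 end near it.

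The members were dimmer than most genes, and this bears on how precisely their ratios are known. Their mean signal ranged from 155 to 7183 with a median of 442.8, against a median of 808.9 over all measured genes. In 57 members all 6 signals reached the minimum, and 24 members had at least 1 signal below it. With signals below the minimum raised to it, 74 members still met the limits. The SD of the log2 signal over the 3 vehicle arrays had a median of 0.25 in the members and of 0.11 over all genes. A low vehicle array at 1 h or 2 h also raises the ratios that chose the members. The activin signals at 1 h and at 2 h both lay above all 3 vehicle signals in 51 members, of which 41 were among the 57 bright ones. Of all genes, 10.2% had this property, but the limits used the same signals, so nothing is read from the comparison.

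The inhibitors and receptors of cytokine, TNF and NF-kappaB signalling gave 7 members, and 2 of them, Socs3 and Nfkbia, had sister probe sets of the same pattern. Socs3, which blocks Janus kinases at cytokine receptors, had an activin signal of 1376.5 and a vehicle signal of 479.2 at 1 h, 977.9 against 550.3 at 2 h, and 438.9 against 398.5 at 6 h. The ratios were 2.87, 1.78 and 1.101, and both early activin signals lay well above all 3 vehicle signals. Its other probe sets gave 2.20, 2.00 and 0.950, and 1.805, 2.08 and 1.11, so that all 3 probe sets were high early and level at 6 h. The ratio of the brightest probe set was higher at 1 h than at 2 h, and that of one of the others was higher at 2 h.

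Nfkbia encodes IκB-alpha, which holds NF-kappaB in the cytoplasm, and was the brightest of the members. It read 8233.9 against 6098.1 at 1 h, 8773.8 against 6727.3 at 2 h, and 6494 against 6770.6 at 6 h. The ratios were 1.35, 1.304 and 0.959, at the edge of the limits, and the vehicle signals were close to each other. Of its 4 other probe sets, 3 met all the limits, with ratios of 1.41, 1.62 and 1.65 at 1 h and of 1.41, 1.43 and 1.503 at 2 h. The dimmest of the 4 gave 1.81 at 1 h and 0.981 at 2 h.

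Bcl3, a nuclear IκB protein that works with NF-kappaB subunits, read 499.1 against 296.9 at 1 h, 493.6 against 178.5 at 2 h, and 236 against 259.9 at 6 h. Its ratios of 1.68, 2.77 and 0.908 followed a vehicle signal that was lowest at 2 h, but the early activin signals lay above all vehicle signals. Birc3, a ubiquitin ligase of TNF receptor complexes, read 1343.5 against 648.2, 1494 against 907, and 886 against 840.2, with ratios of 2.07, 1.65 and 1.05. Tnfrsf12a, the receptor of the TNF family ligand TWEAK, read 1325.5 against 849.4, 1180.9 against 691.4, and 676.1 against 669.7. Each of these 3 genes had early activin signals above the whole vehicle range. The bright second probe set of Tnfrsf12a gave only 1.12 and 1.21, and Bcl3 and Birc3 had no bright second probe set. The ligand genes Tnfsf4 and Cd40lg completed the group at low signals: Tnfsf4 read 225.6 against 119, 309.2 against 55.7, and 278.9 against 259.4, and 4 of the 6 signals of Cd40lg were under the minimum.

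**Figure D2:**
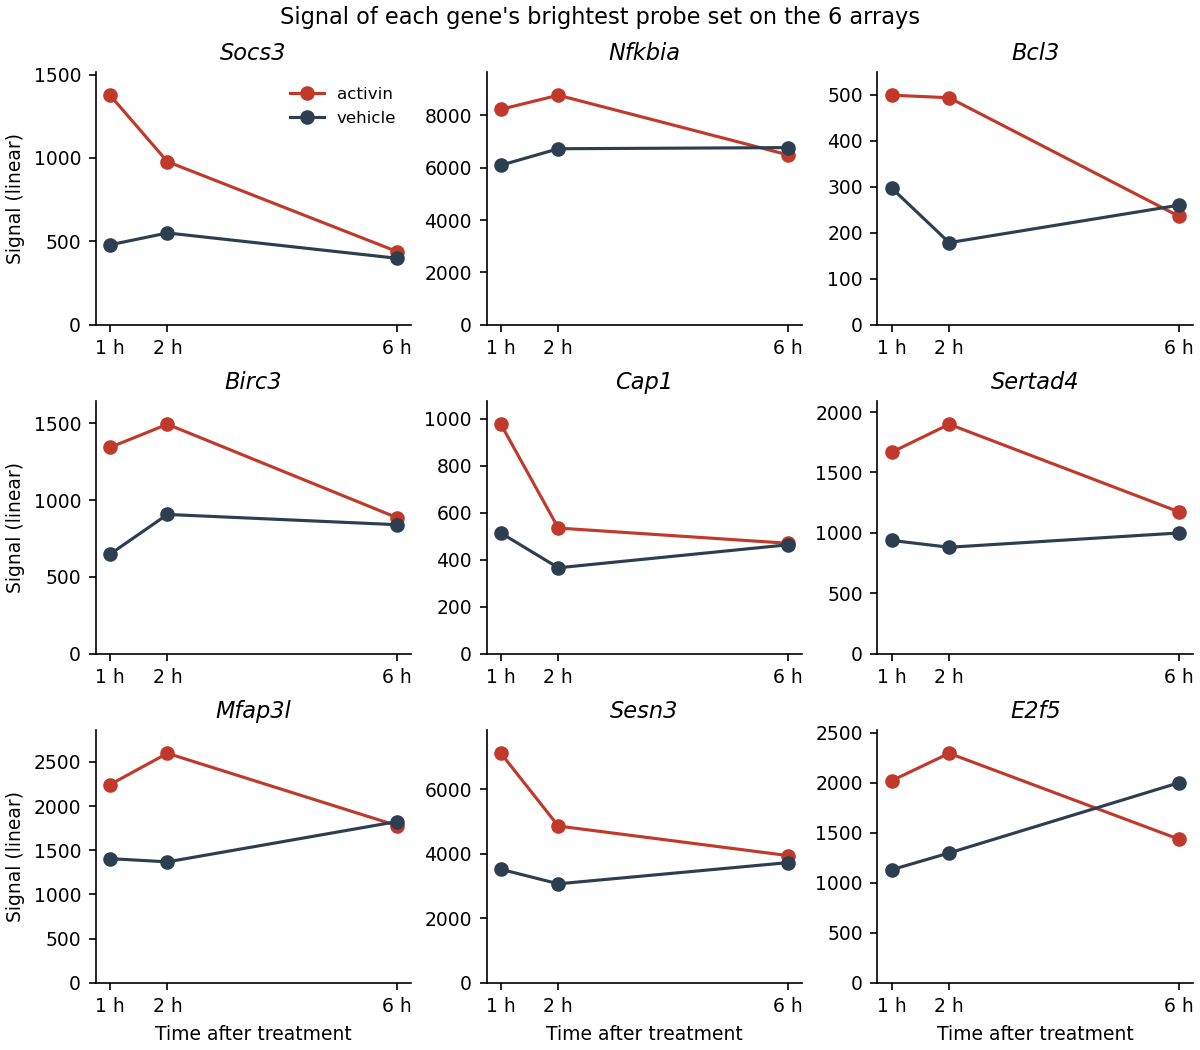
Linear signal (y axis, starting at 0) of the brightest probe set of 9 members on the 6 arrays, by time after treatment (x axis), with activin in red and vehicle in dark blue, 1 array per point. The activin signal of Socs3 goes from 1376.5 at 1 h to 438.9 at 6 h while the vehicle signal stays between 398.5 and 550.3; in E2f5 the vehicle signal goes from 1130.1 to 1998.2.

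The wider list of cytokine and NF-kappaB feedback genes did not move as one. Of its 13 measured genes, 4 were at least 1.3 times higher at 1 h and 3 lower, 5 were higher at 2 h and 0 lower, and 2 were higher at 6 h and 0 lower. The median log2 ratios were −0.11, 0.09 and 0.11. For all genes the shares at 1, 2 and 6 h were 6.08%, 5.96% and 8.74% higher, and 9.46%, 8.32% and 8.98% lower. Irak2, a kinase of interleukin-1 receptor signalling, was higher at all 3 times, with ratios of 2.08, 2.36 and 2.41, and so was no member. Tnfaip3, which edits ubiquitin chains on NF-kappaB regulators, was lower at 1 h at 0.73.

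Transcription factors made up 8 members. E2f5, a pocket-protein partner that mostly represses cell cycle genes and is known to work with Smad3, read 2020 against 1130.1 at 1 h, 2292.8 against 1297.6 at 2 h, and 1435.4 against 1998.2 at 6 h. The ratios were 1.79, 1.77 and 0.718, and the activin signal at 1 h was only just above the vehicle signal at 6 h. Its 2 other bright probe sets gave 0.873 and 0.784, and 0.821 and 0.7497, at the early times. The probe sets of E2f5 therefore went opposite ways at 1 h and 2 h.

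Bhlhe40 encodes a helix-loop-helix repressor of the circadian clock that TGF-beta family ligands can induce. It read 1255.8 against 535.3, 559 against 420.1, and 961.2 against 1058.8, with ratios of 2.35, 1.33 and 0.908. Its vehicle signal was 2.52 times higher at 6 h than at 2 h, and the activin signal at 2 h lay inside the vehicle range. The orphan nuclear receptor gene Nr4a2 read 358.8 against 216.4, 280.3 against 153.7, and 446.5 against 402.4. Both activin and vehicle signals of Nr4a2 were highest at 6 h, so the early activin signals lay below that vehicle signal. Hif3a, of the hypoxia-inducible factor family, read 257.1 against 91.9, 396.4 against 186, and 74.9 against 94.8, and 3 of these signals were under the minimum. Its bright second probe set gave 1.102 and 1.37 at 1 h and 2 h.

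The remaining factors were dim or rested on a changing vehicle. Esrrb, an orphan receptor known from pluripotent cells, had ratios of 1.303, 2.10 and 0.888, and its bright second probe set had 1.17, 0.859 and 1.49. Tead3, which carries the Hippo pathway's output to DNA, had the lowest 6 h ratio of all members, 0.291, from signals of 97.6 and 335.5. The homeobox genes Six5 and Nkx2-6 had early ratios of 2.58 and 1.45, and of 1.66 and 1.38. The second probe set of Nkx2-6 was bright and read lower than vehicle at both early times, at 0.882 and 0.886.

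Of the measured immediate early genes, Nr4a2 was the only member. Of these 18 genes, 4 were at least 1.3 times higher at 1 h and 7 lower, 3 were higher at 2 h and 6 lower, and the medians were −0.08 and −0.08 on the log2 scale. Fos read higher at 1 h and 2 h, at 2.06 and 1.41, while Myc read lower at 0.48 and 0.58 and Klf6 at 0.45 and 0.61. Of 23 measured early targets of activin and TGF-beta, 10 were higher and 0 lower at 1 h, and 10 higher and 4 lower at 2 h. Of all genes, 6.08% were higher and 9.46% lower at 1 h, and 5.96% and 8.32% at 2 h. The lists were chosen with earlier results of these data known, so the counts are a description. Most of the listed targets were not members. At 6 h, 8 of them were higher, such as the cell cycle inhibitor Cdkn2b at 2.17 and the activin subunit gene Inhbb at 1.97, and 4 were lower. Bhlhe40 was the only member in that list. None of the members belonged to the lists of TGF-beta family ligands (8 measured), receptors (9) or Smads and their regulators (16), since Smad7 had been set aside by name. In these lists 3 genes were at least 1.3 times higher at 1 h, 4 at 2 h and 8 at 6 h, and Smad6, an inhibitory Smad gene, read 2.58, 3.14 and 1.35. Lower by that factor were 1 ligand gene at 1 h, and 2 of the Smads and their regulators at 2 h and 2 at 6 h. Of all genes, 8.74% were higher and 8.98% lower at 6 h.

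Co-activators and proteins of chromatin and genome maintenance gave 13 members, all of them at or above the minimum on all 6 arrays. Role groups were named among the members alone, so no share over all genes is at hand. Ppargc1b, a co-activator of nuclear receptors in mitochondrial gene programmes, read 1823.6 against 1329.5, 2939.3 against 1415, and 1911.3 against 1980. The ratio was largest at 2 h, at 2.08, and the activin signal at 1 h was below the vehicle signal at 6 h. Auts2, a neurodevelopmental gene of a Polycomb complex, read 4577.3 against 3413.7, 3899.5 against 2866.7, and 3819.4 against 3198.2. Its 6 h ratio of 1.19 was the closest of all members to the limit, and the activin signal stayed high while the ratio shrank. Of its 3 bright sister probe sets, 1 gave 1.34 and 2.16, 1 gave 1.11 and 1.399, and 1 gave 1.12 and 0.652 at the early times, and both that were higher at 2 h remained over 1.2 at 6 h.

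Rif1, which sets replication timing and protects broken DNA ends, read 3653.5 against 2574.3, 3371.8 against 2379.6, and 3335.5 against 2986.8. Of its 3 bright sister probe sets, 1 was higher at all 3 times (1.55, 1.55 and 1.49), and 2 read 0.798 and 0.792 at 2 h. Med1, the Mediator subunit that binds nuclear receptors, had ratios of 1.65, 1.47 and 1.14, and its 3 bright sisters had 1.16, 0.7497 and 1.60 at 1 h and 0.868, 0.828 and 1.34 at 2 h. The histone chaperone gene Asf1a (1.33, 1.3002 and 1.18) and the demethylase family gene Jmjd1c (1.36, 1.31 and 1.09) were near the limits. The others were the condensin gene Ncapg, the helicase genes Brip1 and Rad54l2, the deacetylase gene Sirt6, and Uhrf2, Slx4ip and Smyd4, with early ratios of 1.31 to 2.06. At 1 h and 2 h, the 2 bright sisters of Jmjd1c gave 1.46 and 0.953, and 2.09 and 0.811. The bright sister of Ncapg gave 2.08 and 0.957, that of Slx4ip 1.31 and 1.19, and that of Rad54l2 0.991 and 0.988.

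The 3 members that restrain the growth kinase complex mTORC1 were Sesn3, Ddit4 and Nprl3. Sesn3, a sestrin that acts on the amino acid branch of the pathway, read 7113.1 against 3519, 4859.1 against 3068.6, and 3944.1 against 3725.7. The ratios were 2.02, 1.58 and 1.06, and all 3 activin signals lay above all vehicle signals. A sister probe set with a mean signal of 4352, close to the brightest, gave 1.01, 0.869 and 0.731, so the gene's direction depended on the probe set. The related sestrin genes Sesn1 and Sesn2 were no members and read lower than vehicle at both early times. Their ratios at 1 h and 2 h were 0.733 and 0.824 for Sesn1, and 0.891 and 0.690 for Sesn2. Ddit4, induced by hypoxia and glucocorticoids, read 1872 against 1426.2, 1883.5 against 1426.4, and 2029.5 against 1963.2. Its activin signals were nearly level and the vehicle signal at 6 h was above both early activin signals. Nprl3, a GATOR1 subunit, had ratios of 1.33, 1.44 and 1.16. Among 19 measured stress, p53 and growth arrest genes, which include Ddit4, 5 were higher and 4 lower at 1 h, and 2 were higher and 2 lower at 2 h. Over all genes, 6.08% were higher and 9.46% lower at 1 h, and 5.96% and 8.32% at 2 h.

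Signalling proteins, ligands and small GTPases gave 12 members. Sdc4, the heparan sulphate proteoglycan syndecan-4, read 2025.2 against 956.1, 1284.6 against 770.4, and 631.9 against 775.1. Its activin signal was lower at each later time, and the second probe set was higher at 1 h (1.78) but not at 2 h (0.940). Dusp2, a nuclear phosphatase of MAP kinases, read 886 against 451.8, 568.6 against 404.8, and 464.8 against 401.8. All 3 of these activin signals lay above the vehicle range. Of 11 measured genes of MAP kinase feedback, Dusp2 was the only member, with 2 higher and 2 lower at 1 h and 1 higher and 3 lower at 2 h. Over all genes, 6.08% were higher and 9.46% lower at 1 h, and 5.96% and 8.32% at 2 h.

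Gem, a small GTPase that restrains voltage-gated calcium channels, read 622.9 against 307.4, 505.8 against 388.3, and 391.9 against 401.1, so that the early activin signals were above all vehicle signals. It was the only member among 14 measured regulators of small GTPases and G proteins, of which 1 was higher and 3 lower at 1 h and 2 were higher and 2 lower at 2 h. For all genes the shares were 6.08% higher and 9.46% lower at 1 h, and 5.96% and 8.32% at 2 h. Evi5, a TBC-domain protein of Rab traffic, read 528.2 against 232.6, 391.5 against 218, and 335 against 287. Its second probe set, nearly as bright, gave 1.03 and 0.857. Shh, the hedgehog ligand, and Smo, the membrane protein that passes its signal on, were both members. Shh had ratios of 1.38, 1.75 and 0.974, while the Smo ratios of 5.42, 1.46 and 0.327 rested on vehicle signals of 143.7, 643.4 and 913.7. The adaptor gene Bcar1, the ubiquitin ligase gene Siah2, the Wnt regulator gene Amer2, and Pdgfc, Tbxa2r and Fam3c had early ratios of 1.304 to 1.82. The bright sister of Bcar1 gave 0.933 and 1.12 at 1 h and 2 h, and that of Fam3c 1.09 and 1.18. The second probe set of Siah2 gave 1.39, 1.28 and 1.297, which left out the return at 6 h.

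Among 11 members of the cytoskeleton and of neuronal RNA or calcium proteins, Cap1 was the one with a sister of the same pattern. Cap1, an actin regulator that recycles monomers, read 977.3 against 514.2, 535.3 against 366.2, and 470.6 against 464.1, and its sister read 695.2 against 201, 256.2 against 138.8, and 163.2 against 146. Both probe sets were highest on the activin array at 1 h, where the 18S control also stood apart, and the ratios at 2 h were 1.46 and 1.85. Dcx, Slain1, Mtus2 and Eml2 encode microtubule proteins. Slain1 had ratios of 1.89, 1.32 and 1.14, and its 2 bright sisters were higher at 2 h (1.77 and 1.90) and remained so at 6 h (1.66 and 1.39). The bright sister of Dcx read 0.984 and 0.946, and the 2 of the helicase gene Dhx36 read 0.851 and 1.17, and 0.916 and 0.923. The splicing factor gene Rbfox2, the calcium sensor gene Hpca, the kinase gene Dclk3 and the actin-linked Plek2 and Baiap2l1 had early ratios of 1.31 to 1.99. The 2 bright sisters of Rbfox2 gave 0.974 and 1.02, and 1.09 and 0.971, at 1 h and 2 h. That of Baiap2l1 gave 0.885 and 1.17, and that of Hpca 1.28 and 1.13.

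Of 5 lipid genes, the phosphatidate phosphatase gene Lpin1 was the brightest, with ratios of 1.34, 1.79 and 1.18. Its second probe set gave 1.00, 1.70 and 1.49 and so differed at 1 h and at 6 h. Gpaa1, a subunit of the enzyme that attaches proteins to GPI anchors, had 1.52 and 1.45, and both its bright sisters were under 1 at both early times. Abca2, Acsbg3 and Pnpla1 each had at least 1 signal under the minimum.

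The other 22 members include 4 with clone or database names. Sertad4 read 1668.3 against 937.6, 1899.1 against 881.4, and 1174.8 against 999.5, with ratios of 1.78, 2.16 and 1.18. The vehicle signals of Sertad4 were close together and all activin signals lay above them, a clear early difference with no second bright probe set. Mfap3l, a membrane protein gene, read 2243.5 against 1405.4, 2597.3 against 1368.9, and 1779.3 against 1824.7. Its 2 bright sisters gave 2.37 and 1.27, and 1.12 and 1.32, higher than vehicle at both times but past 1.3 only at one. The immune genes Cd22, Siglecg and H2-Eb1 each had 2 signals under the minimum. For Cd22, a B cell receptor inhibitor, activin read 248, 394.9 and 129 and vehicle read 120, 223.3 and 274.6. The activin signal of Cd22 at 1 h was below its vehicle signal at 6 h. The ribosomal protein gene Rps27 was a member through a probe set with signals of 92.7 to 247, dim for such an RNA. Dcaf6, Tmem181a, Ttyh2, Nat14, Trp53i13, Fam124a, Serpinb9b, Clstn3, Ankrd29, Fam161a, Dzip1l and Cysrt1 had early ratios of 1.3001 to 2.01.

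Second probe sets give a view of the same RNA on the same arrays by other oligonucleotides, so they check the probe set and not the culture. At least 1 sister probe set was present for 45 members, 80 in all, and 30 members had 47 that reached the minimum. Of these 47, 18 were at least 1.3 times higher at 1 h, where 13.3% of bright sister probe sets of all genes were. At 2 h, where the 18S control read 1171.1 with activin and 642.8 with vehicle, 15 of the 47 were, against 8.74%. All the limits were met by 6, in Nfkbia, Socs3 and Cap1, against 1.83%. Ratios of at least 1.3 at both early times were seen in 10 sisters of 7 members, ratios under 1 at both in 10 sisters of 8 members. The sisters' median ratios were 1.12, 1.12 and 1.03 at 1, 2 and 6 h. Those of the chosen probe sets of the same 30 members were 1.48, 1.46 and 1.05, and those of the bright sisters of all genes were 1.02, 0.986 and 1.01. The members' sisters thus stood above the sisters of all genes and well below the probe sets that had been chosen for high ratios. Over 5062 genes with more than 1 bright probe set, 2 of them differed by a median of 0.22, 0.17 and 0.19 (absolute log2 difference of the ratio) at 1, 2 and 6 h.

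**Figure D3:**
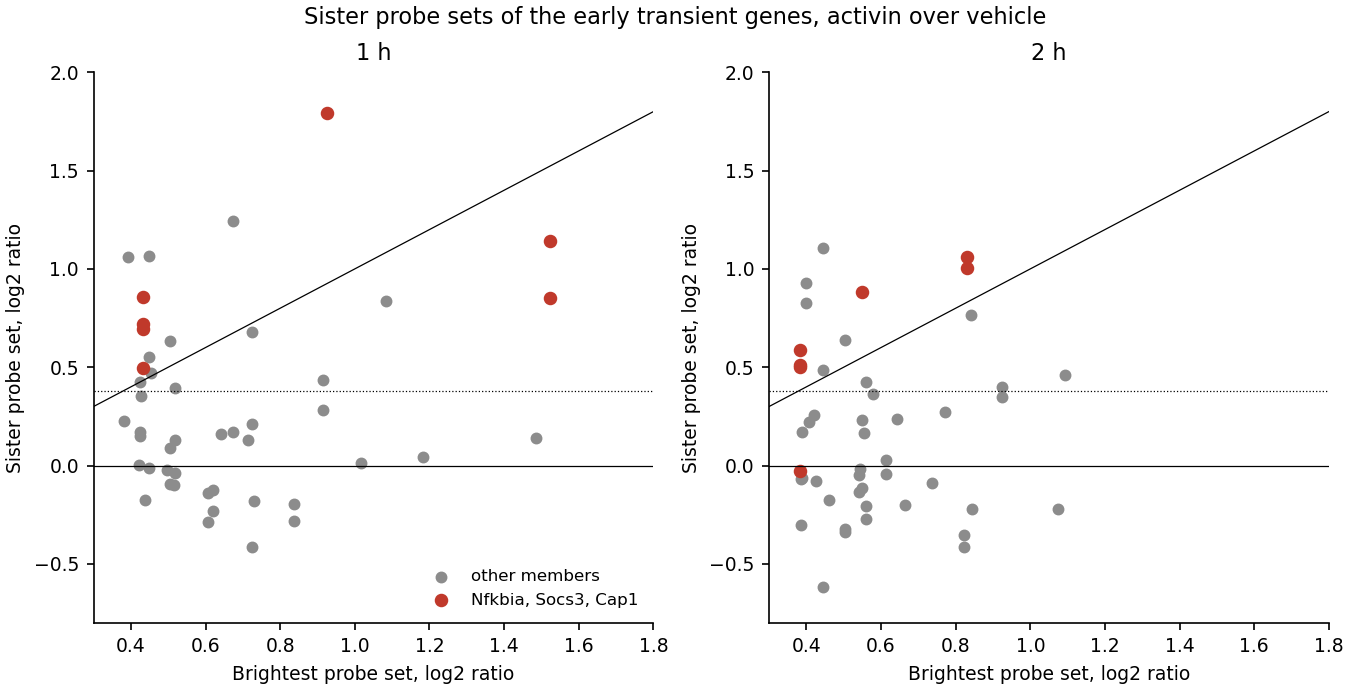
The log2 ratio of each bright sister probe set (y axis) against that of the gene's brightest probe set (x axis) at 1 h and at 2 h, for 47 sisters of 30 members; the diagonal marks equal ratios, the dotted line a ratio of 1.3, and sisters of Nfkbia, Socs3 and Cap1 are in red. Of the 47, 18 lie on or above the dotted line at 1 h and 15 at 2 h, and others lie below 0.

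The 6 h ratio can return to 1 because the activin signal comes down or because the vehicle signal goes up, and both were seen. From 2 h to 6 h the activin signal was lower at the later time in 69 members and the vehicle signal higher in 70, with both in 58. The median log2 change was −0.34 for activin and 0.34 for vehicle, where the medians over all genes were −0.01 and −0.02. The activin signal came down by more than the vehicle signal went up in 40 members, a property of 43.9% of all genes, and in the other 41 the vehicle difference was the larger. Socs3 ended with a lower activin signal, at 0.45 of its 2 h signal, with a vehicle signal at 0.72 of its own. Sdc4 (0.49 and 1.01), Birc3 (0.59 and 0.93), Tnfrsf12a (0.57 and 0.97) and Nfkbia (0.74 and 1.01) likewise had a lower activin signal at 6 h beside a vehicle signal closer to its 2 h value. In Ddit4 (1.08 and 1.38), Bhlhe40 (1.72 and 2.52), Nr4a2 (1.59 and 2.62), Brip1 (1.52 and 1.73) and Abca2 (1.26 and 3.79), both signals were higher at 6 h and the vehicle difference was the larger. The limits used all 4 of these signals, so the balance is a description.

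**Figure D4:**
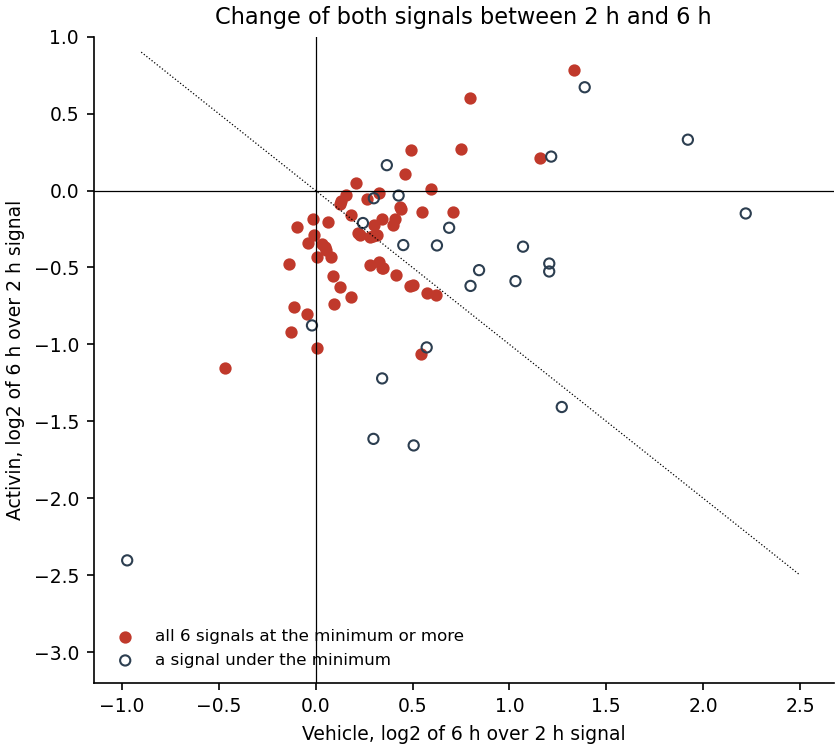
For each of the 81 genes, the log2 of the 6 h over the 2 h signal with activin (y axis) against the same with vehicle (x axis); filled points have all 6 signals at 155 or more, open circles have a lower one, and points below the dotted line are genes whose activin signal came down by more than the vehicle signal went up. In 40 genes the point lies below that line and in 41 above it.

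The choice of vehicle array mattered for the same reason. With the mean of the 3 vehicle arrays as the reference at every time, 27 of the 81 members still met the limits, 22 of them with all signals at the minimum or more. Of the 54 that did not, 41 were under 1.3 at 1 h or 2 h and 34 were at or over 1.2 at 6 h, with 21 in both classes. Socs3 (2.92, 2.07 and 0.93), Bcl3 (2.08, 2.06 and 0.98), Birc3 (1.70, 1.89 and 1.12), Tnfrsf12a, Sdc4, Dusp2, Gem, Sesn3, E2f5 and Mfap3l were among the 27. Nfkbia missed at 1 h by a small margin, at 1.26, Sertad4 at 6 h at 1.25, and Cap1 at 2 h at 1.21. Bhlhe40 (0.90 at 2 h), Nr4a2 (1.18 at 2 h) and Ddit4 (1.18 and 1.19) missed the limits by more.

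Selection at one early time leaves the other early arrays unused. The genes higher at both times are the 81 members themselves, so both shares below restate that count. The genes chosen at one time were not matched to all genes in signal. Of 339 genes that were at least 1.3 times higher at 2 h and under 1.2 at 6 h, 23.9% were also at least 1.3 times higher at 1 h, against 6.08% of all genes, and 48 (14.2%) were lower by that factor, against 9.46%. Of 438 genes chosen in the same way at 1 h, 18.5% were also higher at 2 h, against 5.96%, and 67 (15.3%) were lower, against 8.32%. These shares depended on the scaling. With the median of each array set equal, 15.7% of the genes chosen at 2 h were also higher at 1 h. Of those chosen at 1 h, 25.6% were also higher at 2 h. The shares of all genes change with the scaling too and are not given for it, so 6.08% and 5.96% are not their background.

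The limits cut through a continuum. Just inside at 1 h were Esrrb (1.303), Gm3715 (1.307) and Ddit4 (1.313), and just outside were Tent5c, Trp53rka and the GATA factor gene Gata6, with 1.299, 1.295 and 1.295. At 2 h Dcaf6 (1.3001), Asf1a (1.3002) and Gem (1.303) lay inside, and Sp1, Arhgap32 and Aph1b outside, at 1.296, 1.295 and 1.293. At 6 h Auts2 (1.19), Asf1a (1.18) and 1600010M07Rik (1.18) lay inside and 2900009J06Rik (1.2003), Polr3f (1.21) and Alkbh8 (1.23) outside. Of mean signals, Cd40lg (155), C130026I21Rik (158) and Dclk3 (160) lay inside, and Tex43 (154), Foxh1 (154) and Rtn4rl1 (153) outside. Foxh1 encodes the forkhead partner of activin-regulated Smads and had ratios of 1.56, 2.27 and 0.943. Below the minimum signal, 284 further genes met the ratio limits.

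The authors' deposited tables of folds list 5 of the members, among 47 distinct genes with a fold at 1 h and 23 at 2 h. The authors' limits were a fold of 1.5 and a signal difference of 100, unlike the ratio of 1.3 used here. At 1 h the authors' deposited table gives Dusp2 as 1.55, Nfkbia as 1.81 and Socs3 as 1.65. At 2 h the authors' deposited table gives Auts2 as 1.5, Bcl3 as 1.8 and Socs3 as 1.55. The brightest probe sets gave other values for all of these, such as 2.87 for Socs3 at 1 h, and the 1.81 of Nfkbia equals the ratio of its dimmest sister probe set. The folds given for Socs3 and Auts2 equal the ratio of none of their probe sets at the same time.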

How the data were processed

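RNA of 6 LβT2 cultures was hybridised to 1 mouse Affymetrix array each. The authors deposited intensity values, linear and 1 per probe set, made by GCOS 1.4, per the submitters' processing notes, at settings not given in the sources used here. The values show each array scaled to 1 trimmed mean. Such scaling makes each ratio relative to the bulk of probe sets. The authors also deposited tables of signed folds, treated as a score, and quoted only where named; these list part of the genes. Per the labels there is 1 culture for each treatment and time, so a given time alone cannot be tested. A test over the 3 times was not made, because the limits used all 3 ratios. Values and counts are given alone, and depth does not apply: the number of arrays limits the precision.

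Probe sets with 1 gene symbol in the platform annotation were used, and the brightest of each gene was kept at a mean signal of at least 155. Of 2988 bright probe sets without 1 gene, 33 met the limits. The members, the role groups and 10 gene lists (138 of 230 genes measured) were chosen with earlier results of these data known. On the list of Notch and helix-loop-helix repressors, 4 of 13 measured genes were higher and 2 lower at 1 h, and 2 higher and 1 lower at 2 h. The shares of all genes were 6.08% higher and 9.46% lower at 1 h, and 5.96% and 8.32% at 2 h. Values in full were due for 12 members with the highest lower ratio of 1 h and 2 h, 8 with the highest signal, members of a list, with a sister of the same pattern, in the authors' tables, and the 3 genes on each side of each limit; others were picked after their values were seen. Alternatives were another filter, scaling, pseudocount, probe set summary, fold and vehicle reference, and signals raised to the minimum. The selection code was run on simulated data with planted rises and far less noise than these arrays. That run checks the code alone and says nothing of false members at the noise of these data. Python 3.11.15, pandas 2.3.3, numpy 2.4.6 and matplotlib 3.10.9 were used. Promoter windows come from RefSeq.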

Additional observations from a re-analysis of the deposited data

Results flagged for a closer look

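On the activin array at 1 h, the 5′ control of 18S ribosomal RNA gave 12201.8, against 610.1 on the vehicle array of the same time. At 2 h it gave 1171.1 with activin and 642.8 with vehicle, and it was lower at 6 h. Its part in the 1 h and 2 h ratios was not tested.

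For 10 members the ratio was higher than 1.3 at 1 h and 2 h and at most 0.667 at 6 h, so the arrays of 6 h went the opposite way; the difference between the times was not tested, since each group has 1 array. The 6 h ratios were 0.291 for Tead3, 0.327 for Smo, 0.470 for Cd22, 0.515 for Abca2, 0.519 for Cd40lg, 0.536 for Six5, 0.564 for Clstn3, 0.623 for H2-Eb1, 0.633 for Uhrf2 and 0.636 for Cysrt1. Of these 10, 9 had at least 1 signal under the minimum of 155, the exception being Uhrf2.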

How the results depend on the processing

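The set depends on the signal minimum and the fold: a minimum of 300 left 53 members, no minimum 365, and a ratio of 1.5 at both early times 25. With the mean of the 3 vehicle arrays as the reference the median log2 ratio at 6 h was 0.22 instead of −0.04, and 58 genes met the limits, 27 of them shared. Median centring gave 88 genes with 67 shared, quantile normalization 84 with 74, the median over probe sets 87 with 58, and a pseudocount of 50 gave 57 with 55. Counting sister probe sets of any brightness, 6 members had one of the same pattern. With median centring, 15.7% of the genes chosen at 2 h were also higher at 1 h. Of those chosen at 1 h, 25.6% were also higher at 2 h, and no share of all genes under that scaling is given. With a minimum of 300, 22.6% of the genes chosen at 1 h were also higher at 2 h, against 4.67% of all genes. With a gene's median over probe sets, the mean of the 1 h and 2 h log2 ratios was −0.27 for E2f5 and −0.16 for Rif1, whose sister probe sets read lower. Of 174 values of the 29 named members under alternatives, 136 shifted by less than about 0.11, 36 moved further and 2 changed sign. That limit is near the median log2 SD of the vehicle arrays over all genes, not the members' own median of 0.25. A paired fit over the 3 times was not made, because the limits that chose the members used all 3 ratios. Background correction and probe summary were not varied.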
